A study of Mus musculus with 6 samples.

Results

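H3K27ac, the acetylation of lysine 27 of histone H3, was analyzed at distal peaks that lie far from any H3K27ac peak with an OCT4 site. A peak was taken when the authors' table marks it as having no OCT4 site within 1 kb, no GENCODE vM21 transcript start lies within 1 kb of it, and the nearest H3K27ac peak marked as having an OCT4 site is over 100 kb away on the same chromosome. This rule, which used no H3K27ac value, held for 7400 of 31131 peaks (23.8%), here called far distal peaks. Their median gap to the nearest OCT4-site peak was 352 kb, and 1295 of them were over 1000 kb away. The 4451 strong enough to be tested had a median gap of 266 kb, and 358 of these were over 1000 kb away. The gap runs to OCT4-site peaks of H3K27ac, so that OCT4 binding outside H3K27ac peaks does not enter it.

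The libraries came from O4AID ESCs, mouse embryonic stem cells (strain label 129SV) that lack both native Oct4 alleles (Oct4-/-), carry a TetOFF Oct4 transgene, and express the degron-tagged Oct4AID and the auxin receptor Tir1 from the CAG promoter. All cells were grown in N2B27 with PD03, Chiron and mLIF, and doxycycline kept the wild-type Oct4 transgene off in both groups. One group was uninduced, and the other received 500 μM IAA, the auxin that sends tagged OCT4 to degradation, for 1.5 h. There were 3 libraries from independent immunoprecipitations (IPs) per group, and since the labels do not say whether the IPs came from separate cultures, p-values measure the spread between IPs. The OCT4 sites come from published ChIP-seq of another ESC line, V6.5, and were not measured in these cells.

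H3K27ac marks active promoters and active enhancers, where acetyltransferases recruited by transcription factors place it and deacetylases remove it. OCT4 binds DNA through its POU domain, often beside SOX2, and holds many enhancers of the pluripotency network active in ESCs. Enhancers can act on promoters across long distances, so that a distal peak need not act on the nearest gene. The gene named beside a peak is the one with the nearest protein-coding start and marks position only.

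Libraries held 31634480 to 39547452 reads, of which 6.63% to 7.12% fell in peaks in uninduced cells and 4.05% to 5.15% after IAA. IAA replicate 3 had the lowest share. H3K27ac peaks over the study's background threshold of 0.5 RPKM were found within 1 kb of a start of 8 of 8 ESC marker genes (Pou5f1, Nanog, Sox2 and others), of 0 of 6 trophoblast and 0 of 5 fibroblast markers, and of 1 of 5 endoderm, 1 of 4 mesoderm and 2 of 4 neural markers.

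For a view of the sequence, 6 far distal peaks are shown first by their central 200 bases on the plus strand of GRCm38, the build of all coordinates given, to set the largest falls beside strong peaks that changed little. The first 3 had the largest falls of H3K27ac after IAA, and the second 3 were among the strongest peaks and had changes near 0. No peak with a rise is shown, nor is the peak nearest to 0. None of these windows holds a match to any of 10 short motifs searched on both strands, among them the octamer ATGCAAAT bound by OCT4, so all letters are in lower case.
Dut, chr2:125219226-125219425: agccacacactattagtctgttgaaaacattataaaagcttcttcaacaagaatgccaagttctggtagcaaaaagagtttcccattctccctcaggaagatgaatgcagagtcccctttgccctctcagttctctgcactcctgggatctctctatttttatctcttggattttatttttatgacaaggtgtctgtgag
Hcrtr2, chr9:76359471-76359670: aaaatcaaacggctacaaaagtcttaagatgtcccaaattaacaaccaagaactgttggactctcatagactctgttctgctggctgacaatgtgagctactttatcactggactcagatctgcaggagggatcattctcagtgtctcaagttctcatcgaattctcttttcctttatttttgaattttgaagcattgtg
Arnt2, chr7:84361766-84361965: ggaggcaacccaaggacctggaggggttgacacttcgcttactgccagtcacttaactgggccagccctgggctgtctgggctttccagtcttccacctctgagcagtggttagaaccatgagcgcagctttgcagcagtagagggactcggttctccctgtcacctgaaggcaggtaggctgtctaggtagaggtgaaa
Sp140, chr1:85614697-85614896: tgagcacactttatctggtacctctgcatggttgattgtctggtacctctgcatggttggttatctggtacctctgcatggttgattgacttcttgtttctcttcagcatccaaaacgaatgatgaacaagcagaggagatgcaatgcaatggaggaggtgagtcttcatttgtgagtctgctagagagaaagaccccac
Wnt11, chr7:98814999-98815198: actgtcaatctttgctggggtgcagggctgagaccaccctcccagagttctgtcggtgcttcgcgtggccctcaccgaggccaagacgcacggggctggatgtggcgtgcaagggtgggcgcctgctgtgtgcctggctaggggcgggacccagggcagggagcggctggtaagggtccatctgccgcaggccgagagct
Olfr161, chr16:3241217-3241416: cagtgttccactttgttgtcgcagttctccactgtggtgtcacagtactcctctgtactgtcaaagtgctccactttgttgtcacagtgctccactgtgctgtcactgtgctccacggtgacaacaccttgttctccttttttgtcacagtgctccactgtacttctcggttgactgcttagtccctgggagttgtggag
GC content was 40.5%, 39% and 57% in the first 3 windows and 45.5%, 67.5% and 50.5% in the second 3. The window near Wnt11 holds 12 CpG dinucleotides, against 0 to 3 in the other windows. A word of 10 bases occurs 3 times in the window near Sp140 (acctctgcat) and 3 times in that near Olfr161 (agtgctccac), whereas no word of that length recurs in the other windows.

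The H3K27ac signal of far distal peaks, relative to library size, was lower after IAA. It fell by about as much as at promoters equally far from OCT4-site peaks and by less than at distal OCT4-site peaks. Of the 7400 peaks, 4451 (60.1%) reached 0.5 RPKM in at least 1 pooled condition and were tested. RPKM is the number of reads divided by peak length and by the size of the library. Changes are differences of log2(RPKM + 0.1), a scale that makes the change at weak peaks look smaller than it was. The median level over the tested far distal peaks was 1.04, 1.03 and 0.99 in uninduced replicates 1 to 3 and 0.65, 0.60 and 0.34 in IAA replicates 1 to 3, on log2(RPKM + 0.1). No IAA library reached the lowest uninduced library. The mean of the library medians fell by 0.49, from 1.02 ± 0.0277 (SD, n = 3) to 0.53 ± 0.165 (SD, n = 3), and without IAA replicate 3, the lowest library, it fell by 0.40. The median over all 26457 tested peaks changed by -0.55, so that far distal peaks moved by 0.06 in the other direction relative to the median peak.

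**Figure D1:**
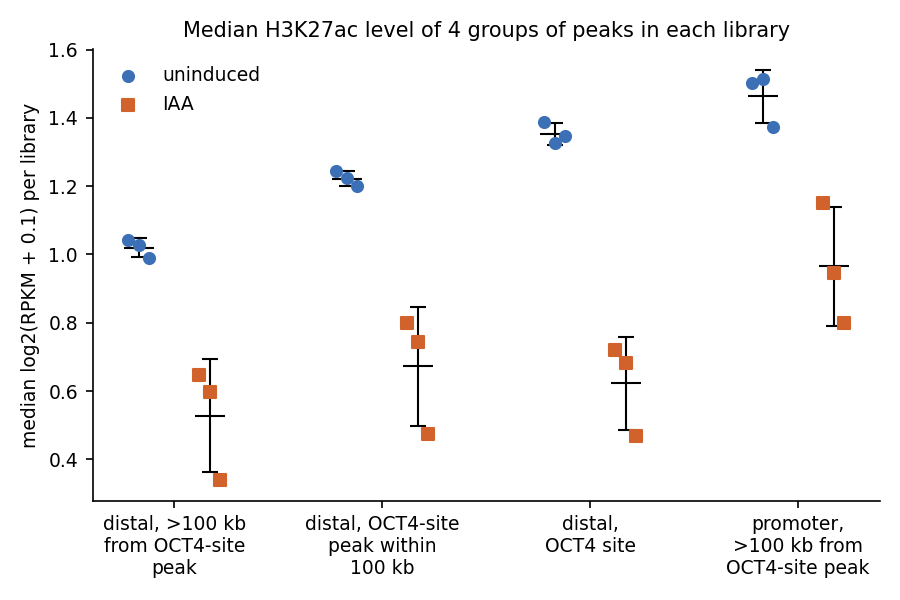
Median level per library, as log2(RPKM + 0.1), of 4 groups of tested peaks: 4451 far distal peaks, 5438 distal peaks without an OCT4 site but with an OCT4-site peak within 100 kb, 3444 distal OCT4-site peaks and 6369 promoter peaks over 100 kb from an OCT4-site peak. Circles are uninduced and squares IAA libraries, and black lines give mean and SD (n = 3). In each group all 3 IAA libraries sit below all 3 uninduced ones.

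The fall differed most from that of distal OCT4-site peaks. Far distal peaks started lower than distal OCT4-site peaks, by 0.33 ± 0.0311 (SD, n = 3) on the log2 scale, and after IAA they were lower by 0.10 ± 0.0288 (SD, n = 3). The far distal peaks thus fell by 0.24 less, and the difference between both groups of peaks did not overlap between uninduced and IAA libraries (p = 0.1 by exact permutation of the libraries, two-sided, which is the lowest value possible with 3 against 3, and adjusted p = 0.45 over 9 such comparisons). Averaged within deciles of mean RPKM the difference was 0.25, and within deciles of GC content 0.23. Against distal peaks without an OCT4 site but with an OCT4-site peak within 100 kb, far distal peaks fell by 0.06 less (p = 0.1 by the same exact test, adjusted p = 0.45), again with no overlap between libraries. Against promoter peaks over 100 kb from an OCT4-site peak, the difference in the fall was 0.01 (exact permutation p = 1.0) and ran from -0.04 to 0.04 as each library was left out.

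Beyond 100 kb the median change was nearly the same in each class of distance. Distal OCT4-site peaks had a median log2 change of -0.74, and distal peaks without an OCT4 site had -0.68 at 0 to 5 kb from an OCT4-site peak, -0.59 at 5 to 20 kb, -0.54 at 20 to 50 kb and -0.53 at 50 to 100 kb. Far distal peaks had -0.50 at 100 to 200 kb, -0.50 at 200 to 500 kb, -0.48 at 500 to 1000 kb and -0.48 beyond 1000 kb. Those beyond 500 kb (1062 peaks) and those at 100 to 200 kb (1605 peaks) differed in the fall by 0.0042 on the log2 scale (exact permutation p = 0.9), and by -0.01 to 0.02 as each library was left out. The rank correlation of gap and change was 0.044 across the 4451 far distal peaks and 0.18 across all 9889 tested distal peaks without an OCT4 site, as a description across peaks of the same libraries.

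**Figure D2:**
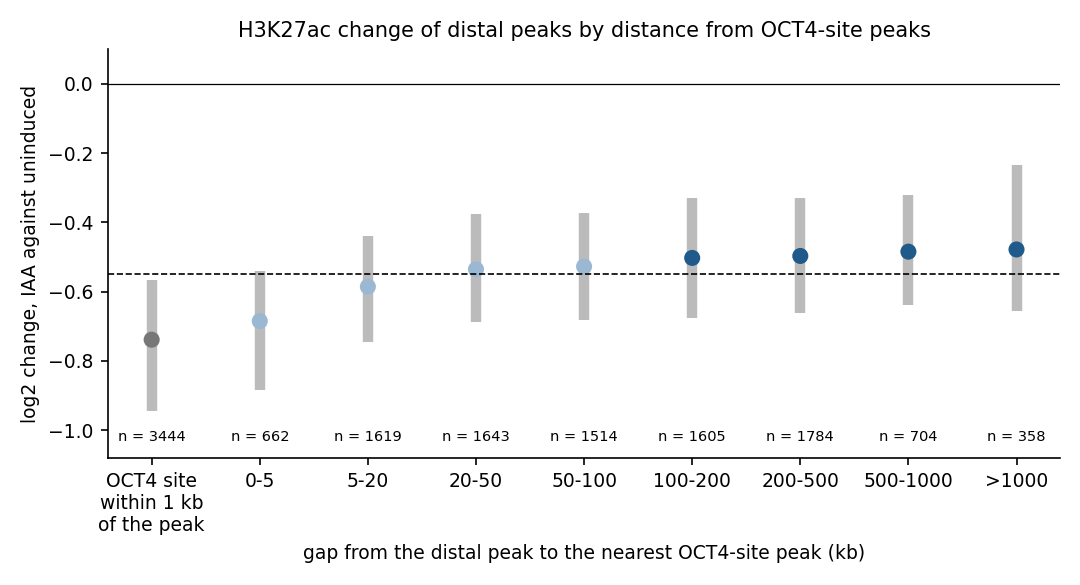
Median log2 change (points) and the span from the lower to the upper quartile (grey bars) of tested distal peaks, by gap to the nearest OCT4-site peak in kb, with peaks within 1 kb of an OCT4 site at the left. The dashed line is the median of all tested peaks, -0.55. Far distal peaks (dark blue) run from -0.50 to -0.48 across their 4 distance classes.

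Single peaks were then tested with limma over all 26457 peaks. Of the 4451 far distal peaks, 2313 (52%) were lower after IAA at an adjusted p under 0.05, against 68.2% of all tested peaks, 85.3% of distal OCT4-site peaks and 65.1% of far promoter peaks. Only 7 (0.157%) were higher, against 0.0605% of all tested peaks, and 12 had a positive change at an unadjusted p under 0.05. The 2 groups of libraries did not overlap, with IAA below, at 2623 far distal peaks (58.9%; 71.2% of all tested peaks) and with IAA above at 21 (0.472%; 0.144% of all tested peaks). The change was negative at 4177 far distal peaks and positive at 274. Since the authors called peaks on uninduced reads only, regions high in those libraries were favoured. How far this adds to the counts of lower peaks and to the median fall was not tested. A peak could also pass the threshold of 0.5 RPKM through 1 condition alone, which favours a change towards that condition. The count of lower peaks was 1252 without uninduced replicate 1 and 1691 without IAA replicate 3.

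Every RPKM value depends on the total reads of its library, so the shift shared by all peaks was also taken out by setting the median peak to 0 in each library. After this centring, 22 far distal peaks were lower (0.494%; 1.97% of all tested peaks) and 42 higher (0.944%; 0.544% of all tested peaks) in limma at an adjusted p under 0.05. All 22 were among the 2313 lower peaks, and all 7 peaks higher without centring were among the 42. Reads in far distal peaks made up 0.784%, 0.762% and 0.754% of all reads before IAA and 0.584%, 0.564% and 0.463% after it, with no overlap. As a share of reads in peaks, they made up 11.1% ± 0.207 (SD, n = 3) before and 11.6% ± 0.387 (SD, n = 3) after IAA, with overlap of the libraries. With no spike-in used here, whether the shift shared by all peaks lies in the mark or in the enrichment of the IPs was not tested.

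The share of far distal peaks called lower rose with their level. They are weaker than the other peaks, with a median of 1.63 RPKM over the 6 libraries against 1.93 at distal OCT4-site peaks and 2.25 at far promoter peaks. In the lowest decile of tested peaks by level, 28.1% of 986 far distal peaks and 44.5% of 1660 other peaks were lower. In the highest decile, 88.5% of 113 far distal peaks and 89.3% of 2533 other peaks were lower. The median far distal peak held 38 to 48 reads in the uninduced and 25 to 31 in the IAA libraries, so that the change of a single peak had a median standard error of 0.21. At this depth a change of the median size was not detectable at every peak, and the 2131 peaks that did not pass the test are not shown to be unchanged.

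**Figure D3:**
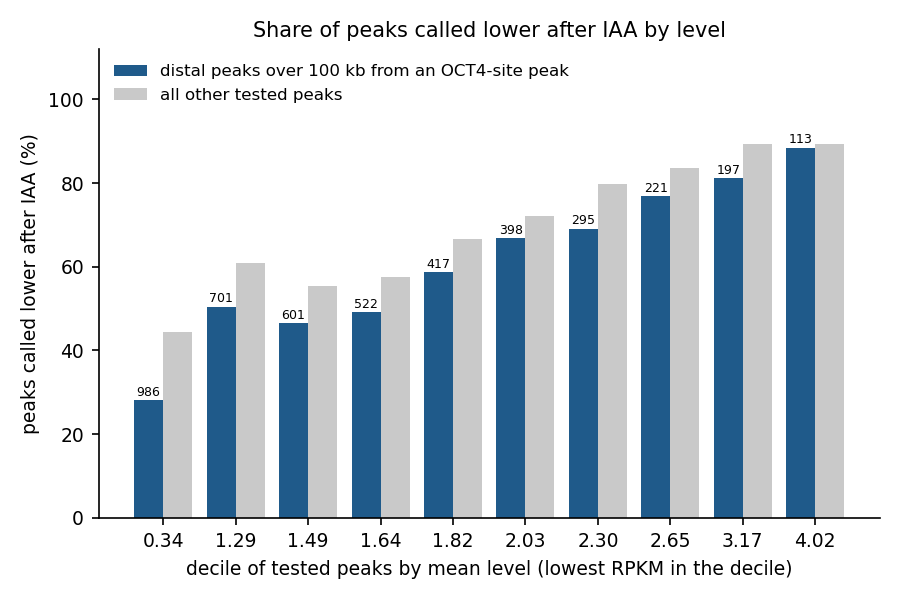
Percent of tested peaks lower after IAA (limma adjusted p under 0.05) in each decile of all tested peaks by mean RPKM over 6 libraries. Blue bars are far distal peaks, with their number above the bar, and grey bars all other tested peaks. The blue bars go from 28.1% in the lowest to 88.5% in the highest decile.

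By genomic position, the median changes of far distal peaks lay close together. Of the 4451 tested peaks, 1967 overlap an intron and no exon, 1898 are intergenic and 586 overlap an exon, with median changes of -0.50, -0.49 and -0.49. The fall of intergenic and intronic peaks differed by 0.01 (exact permutation p = 0.4). Peaks with another H3K27ac peak within about 13 kb (2627 peaks) had a median change of -0.52, and solitary ones (1824) of -0.45, and the difference of their library medians changed by 0.03 (exact permutation p = 0.2, adjusted p = 0.45). The fall of the tercile with the highest GC content (1484 peaks) and of that with the lowest (1483) differed by 0.07 (exact permutation p = 0.6), by 0.0058 without IAA replicate 1 and by 0.12 without IAA replicate 3. The 63 tested peaks on the X chromosome had a median change of -0.61 and the 4383 on autosomes of -0.49, a split chosen after the values were seen and given as a description.

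The 5 largest falls with no overlap of libraries came at peaks with uninduced means of 1.89 to 3.95 RPKM. The median over tested far distal peaks was 1.90 RPKM in uninduced cells. An intronic peak of Slc12a1 (chr2:125219175-125219475), 27715 bp from the start of Dut, a dUTPase, had 2.78, 1.79 and 2.41 RPKM in the uninduced and 0.586, 0.647 and 0.673 RPKM in the IAA libraries. Its IAA values came from 6 to 7 reads per library. Its log2 change was -1.70 ± 0.225 (SE, limma adjusted p = 4.18e-05), and it lies 1729157 bp from an OCT4-site peak. An exonic peak of Arnt2 (chr7:84361534-84362197), a bHLH-PAS transcription factor, had 3.74, 3.67 and 4.44 RPKM before and 1.15, 1.30 and 1.17 RPKM after IAA. The IAA values of both peaks were close together and far below the uninduced ones, and both peaks were also lower after centring, with adjusted p of 0.0181 and 0.00369 from limma. The Arnt2 peak changed by -1.63 ± 0.174 (SE, limma adjusted p = 1.67e-05).

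An intergenic peak 35565 bp from Hcrtr2 (chr9:76359421-76359719), the gene of an orexin receptor, had 2.21, 2.65 and 1.47 RPKM before and 0.295, 0.651 and 0.968 RPKM after IAA, from as few as 3 reads in IAA replicate 1. A peak in an intron of Gm16083 (chr1:130515311-130515603), 52567 bp from Cd55, a regulator of complement, had 1.99, 1.73 and 1.95 RPKM before and 1.20, 0.664 and 0.198 RPKM after, with 2 reads in IAA replicate 3. At both peaks the IAA values spread widely, and neither passed the test after centring (limma adjusted p = 0.16 and 0.18). An exonic peak of Fam81a (chr9:70088777-70089221), 50689 bp from the glycosyltransferase gene Gcnt3, had 3.64, 2.99 and 2.68 RPKM before and 0.924, 1.19 and 0.845 RPKM after. The Fam81a peak changed by -1.56 ± 0.201 (SE, limma adjusted p = 3.66e-05) and was also lower after centring (limma adjusted p = 0.0101).

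Peaks were called on uninduced reads, so that a region marked only after IAA is not in the table. The rises came at peaks of low level, and 4 of the 5 largest were in sequence that mostly recurs in the genome or is mostly soft-masked (marked as repeat) in the reference. An intergenic peak near the start of chromosome 17 (chr17:3010112-3010480), 104499 bp from Scaf8, had 0.756, 0.344 and 0.772 RPKM before and 1.51, 1.43 and 1.02 RPKM after IAA, from 4 to 19 reads per library. It changed by 1.02 ± 0.281 (SE, limma adjusted p = 0.00661), and 81.0% of its bases are soft-masked. A peak 9104 bp from the vomeronasal receptor gene Vmn2r49 (chr7:10001361-10001734) rose from 0.644 ± 0.191 to 1.25 ± 0.203 RPKM (SD, n = 3), and one 28257 bp from Gm17019 (chr5:15061255-15062553), which holds an octamer, from 0.358 ± 0.0631 to 0.699 ± 0.0323 RPKM (SD, n = 3). Of their 32-base words, taken every 16 bases, 72.7% and 71.3% occur more than once in the genome, against a mean of 13.6% over all tested far distal peaks.

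The remaining rises were at a peak 109515 bp from Prkcq (chr2:11062108-11062593), the gene of a protein kinase C, and in an intron of Ppp2r2b (chr18:42913728-42914217), a regulatory subunit of protein phosphatase 2A. The Prkcq peak had 1.20, 1.11 and 0.799 RPKM before and 1.51, 1.66 and 1.37 RPKM after IAA (limma adjusted p = 0.0457), and 62.1% of its words recur. The Ppp2r2b peak had 0.517, 0.259 and 0.423 RPKM before and 0.659, 0.737 and 0.649 RPKM after (limma adjusted p = 0.0494). Only 10.3% of its words recur, and its values came from 4 to 13 reads. The Ppp2r2b and Gm17019 peaks, with uninduced means of 0.399 and 0.358 RPKM, reached the 0.5 RPKM threshold only after IAA. The threshold thus favoured a rise at both, and their p-values are no separate support for one.

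**Figure D4:**
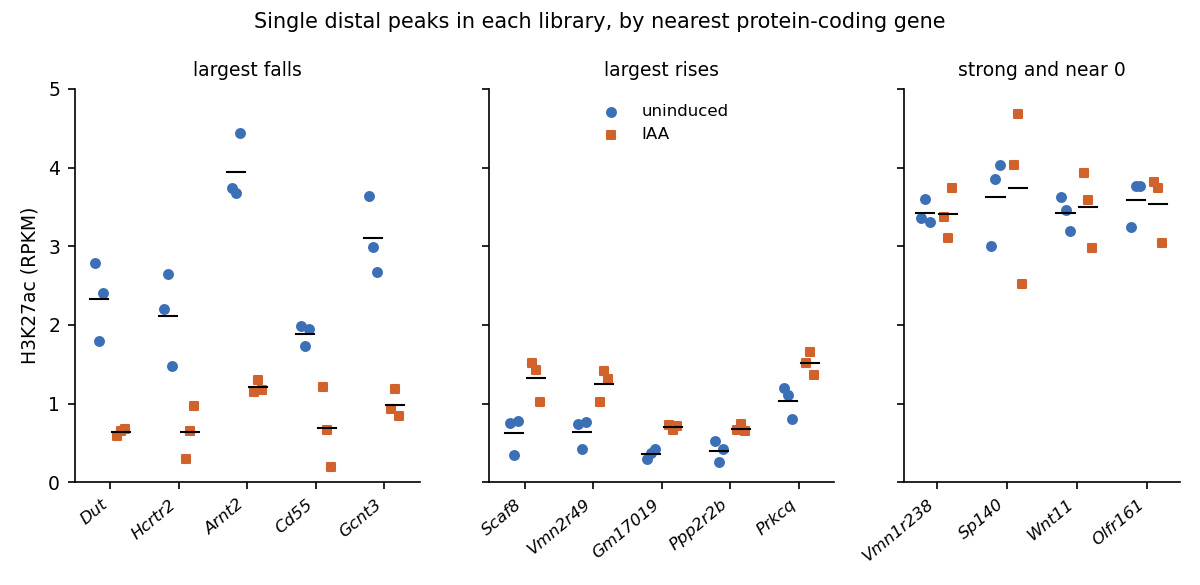
H3K27ac in RPKM per library at the 5 far distal peaks with the largest falls, the 5 with the largest rises, and 4 of the strongest decile with changes nearest 0, named by the nearest protein-coding gene. Circles are uninduced and squares IAA libraries, with the mean as a black line. The Dut peak drops from a mean of 2.33 to 0.635 RPKM, and the Wnt11 peak has means of 3.43 and 3.50 RPKM.

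At 4 of the strongest far distal peaks, those with changes nearest to 0, the means before and after IAA differed by less than the SD. The peak 19690 bp from Wnt11 (chr7:98814774-98815422), a secreted Wnt ligand, had 3.63, 3.46 and 3.19 RPKM before and 3.94, 3.59 and 2.98 RPKM after IAA. The exonic Sp140 peak (chr1:85614636-85614956) had 3.00, 3.85 and 4.04 RPKM before and 4.03, 4.68 and 2.52 RPKM after, a wide spread in both groups. The peak 349503 bp from the olfactory receptor gene Olfr161 (chr16:3241094-3241539) had 3.59 ± 0.306 RPKM before and 3.53 ± 0.424 RPKM after (SD, n = 3), and the peak 117063 bp from the vomeronasal receptor gene Vmn1r238 (chr18:3004416-3006349) had 3.42 ± 0.152 and 3.41 ± 0.320 RPKM (SD, n = 3). Groups overlapped at all 4 peaks. Recurring words made up 0% at the Wnt11, 47.4% at the Sp140, 3.85% at the Olfr161 and 32.8% at the Vmn1r238 peak. Soft-masked bases made up 3.09%, 9.06%, 66.3% and 51.0% in the same order. Centring adds the same shift to every peak, so their changes of 0.53 to 0.58 relative to the median peak follow from this choice. After centring, the limma adjusted p was 0.0112 at the Wnt11 peak and 0.0279 at the Olfr161 peak. It was 0.0581 at the Vmn1r238 peak and 0.111 at the Sp140 peak. Since the peaks were picked for changes near 0, these p-values are no separate support for a rise.

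Of the 6 strongest far distal peaks, 5 are described here, and they hold falls as well as peaks whose groups overlap. The peak 8160 bp from Fam25c (chr14:34363593-34364617) fell from 8.88 ± 0.354 to 5.49 ± 0.915 RPKM (SD, n = 3; limma adjusted p = 0.00181), that in Piezo1 (chr8:122523433-122524964), a mechanosensitive channel, from 8.38 ± 0.339 to 6.14 ± 1.31 RPKM (limma adjusted p = 0.0186), and that in Src (chr2:157419909-157420380), a tyrosine kinase, from 7.64 ± 0.549 to 6.01 ± 0.901 RPKM (limma adjusted p = 0.0483). At each of these 3 the highest IAA value was under the lowest uninduced one, and after centring none of the 3 passed the test. The peak in Cdk8 (chr5:146260773-146261442), a kinase of the Mediator complex, had 7.41, 7.84 and 5.95 RPKM before and 7.97, 5.84 and 5.69 RPKM after (limma adjusted p = 0.48). The exonic peak of Sp110 (chr1:85591216-85593314), a nuclear body protein, had 6.38, 6.63 and 6.40 RPKM before and 7.29, 7.44 and 5.94 RPKM after, and was higher by 0.64 relative to the median peak (limma adjusted p = 0.00298 after centring). Without centring its change was 0.083 (limma adjusted p = 0.60), so most of the 0.64 is the shift added to every peak.

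Far distal peaks were then counted by the nearest gene, over 12 lists of genes. The counts of lower peaks stand beside the 68.2% of all tested peaks and the 52% of far distal peaks that were lower, and no list was tested against those shares. Of 34 naive pluripotency factors, 3 are the nearest gene of a tested far distal peak, and 2 of the 5 peaks (40%) were lower. A peak 234203 bp from Sox2 (chr3:34884608-34885220), the partner of OCT4, had 1.86, 1.65 and 1.56 RPKM before and 0.910, 0.860 and 1.23 RPKM after IAA (log2 change -0.72 ± 0.218 SE, limma adjusted p = 0.0106). A second one, in an intron of Sox2ot (chr3:34485593-34485904) 164501 bp from Sox2, had 2.52, 1.32 and 1.33 RPKM before and 1.32, 1.43 and 0.557 RPKM after, and the groups overlapped (limma adjusted p = 0.0643).

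For lineage genes the counts differed from list to list but were small. Of 3 peaks near formative and primed factors 0 were lower, with a median change of -0.20. The peak 29483 bp from Grhl2 (chr15:37203005-37203553), a transcription factor of epithelial enhancers, had 1.38, 2.25 and 1.60 RPKM before and 2.35, 1.97 and 1.21 RPKM after. The peak in an intron of the DNA methyltransferase gene Dnmt3a (chr12:3871815-3872242) had 1.86 ± 0.312 and 1.56 ± 0.368 RPKM (SD, n = 3). No peak near trophoblast genes (1 peak, near Hand1 at chr11:57820206-57820686), endoderm genes (2 peaks, near Srgn at chr10:62501843-62502358 and Hnf4a at chr2:163515546-163516377) or germ cell genes (1 peak, in Rhox5 at chrX:37806651-37807103) passed the test, and their changes were -0.34, -0.36, -0.43 and -0.34. Of 6 peaks near mesoderm genes 5 were lower, next to 68.2% of all tested peaks. The peak 5344 bp from Snai1 (chr2:167543539-167544123), a repressor that acts in epithelial to mesenchymal transition, had 2.08, 2.87 and 2.65 RPKM before and 1.86, 1.66 and 1.28 RPKM after (limma adjusted p = 0.0114), and the peak 124273 bp from Gsc (chr12:104597603-104598146), a homeobox gene of the organizer, fell from 2.58 ± 0.244 to 1.51 ± 0.610 RPKM (SD, n = 3; limma adjusted p = 0.00918).

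Of 7 peaks near neural genes 5 (71.4%) were lower, against 68.2% of all tested peaks, with a median change of -0.81 against -0.55. The stronger pair lies beside Hes1, a repressor downstream of Notch, within 1178 bp of another peak each. The peak 16035 bp from Hes1 (chr16:30081375-30081802) had 3.38, 3.41 and 3.99 RPKM before and 2.06, 2.01 and 1.76 RPKM after IAA (log2 change -0.85 ± 0.166 SE, limma adjusted p = 0.000838). The peak 17640 bp from it (chr16:30082980-30083489) had 4.12, 2.92 and 3.35 RPKM before and 2.71, 1.80 and 1.42 RPKM after (limma adjusted p = 0.00445). Neither peak passed the test relative to the median peak.

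Of 22 peaks near Wnt genes 13 (59.1%) were lower, against 68.2% of all tested peaks. The peak in Gsk3b (chr16:38168405-38169172), the kinase that marks beta-catenin for destruction, had 6.49, 5.98 and 5.45 RPKM before and 5.08, 3.61 and 2.90 RPKM after IAA (log2 change -0.65 ± 0.180 SE, limma adjusted p = 0.00685), and relative to the median peak it changed by -0.096 (limma adjusted p = 0.80 after centring). The peak 88286 bp from Axin2 (chr11:109011467-109012219), a target gene and inhibitor of Wnt signalling, had 4.84, 5.84 and 4.77 RPKM before and 5.77, 5.49 and 5.26 RPKM after, with full overlap of the groups. Relative to the median peak the Axin2 peak was higher by 0.65 on the log2 scale (limma adjusted p = 0.00601 after centring). Without centring its change was 0.099 (limma adjusted p = 0.54), so most of the 0.65 is the shift that centring adds to every peak. Of 16 peaks near TGF-beta and BMP genes 9 (56.2%) were lower, also next to 68.2%. The peak 9542 bp from the activin receptor gene Acvr1b (chr15:101163588-101164525) had 3.09 ± 0.371 and 2.31 ± 0.787 RPKM (limma adjusted p = 0.063), and the peak 117633 bp from Smad3 (chr9:63875627-63876778), a transducer of TGF-beta signals, fell from 2.86 ± 0.523 to 1.86 ± 0.233 RPKM (SD, n = 3; limma adjusted p = 0.0122).

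Of 3 peaks near FGF, LIF and receptor kinase signalling genes 2 were lower, one of them 28801 bp from Spry1 (chr3:37668881-37669386), an antagonist of FGF signalling, at 1.80, 1.88 and 1.79 RPKM before and 0.871, 1.37 and 0.857 RPKM after IAA (limma adjusted p = 0.0072). The peak 3727 bp from the ephrin gene Efna1 (chr3:89284869-89285559) had 1.70 ± 0.337 and 1.21 ± 0.181 RPKM (limma adjusted p = 0.0664). Among genes with general roles, 6 of 11 peaks near cytoskeleton and adhesion genes and 8 of 12 near metabolic genes were lower (54.5% and 66.7%, against 68.2% of all tested peaks), with median changes of -0.51 in both lists. A pair of peaks in Ccdc57 (chr11:120850178-120851720 and chr11:120852067-120853114), 25631 and 27520 bp from Fasn, the fatty acid synthase gene, fell from 5.83 ± 0.495 to 4.42 ± 0.894 RPKM and from 6.48 ± 0.329 to 4.40 ± 0.781 RPKM (SD, n = 3; limma adjusted p = 0.037 and 0.00719). The peak 16009 bp from Ccn1 (chr3:145632114-145633972), a matricellular protein gene, fell from 2.62 ± 0.240 to 1.81 ± 0.292 RPKM (limma adjusted p = 0.0206), and the peak 17823 bp from Actb (chr5:142924577-142924874) had 3.33 ± 1.10 and 2.81 ± 0.856 RPKM (SD, n = 3; limma adjusted p = 0.35).

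The tested far distal peaks are spread over 2635 nearest genes, of which 1673 have 1 peak and 103 have 5 or more. The 8 genes with at least 10, a limit set after the values were seen, are described by the reads summed over their peaks and divided by library size, in RPM. Their counts of lower peaks stand beside 68.2% of all tested peaks. At Vegfa, the vascular endothelial growth factor gene, 11 of 11 peaks (within chr17:45905690-46029857) were lower, with 28.3, 26.8 and 27.7 RPM before and 20.7, 19.5 and 14.5 RPM after IAA. At Rftn1, which encodes a lipid raft protein, 10 of 11 (within chr17:49987056-50171645) were lower, with 27.9, 28.1 and 27.5 before and 17.4, 15.6 and 11.8 RPM after IAA, and the median change of -0.87 was the most negative of the 8 genes. At both genes the IAA sums lay below the uninduced sums, and the peaks lie 303 to 427 kb and 204 to 303 kb from the nearest OCT4-site peak.

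At Mgat5, a glycosyltransferase gene, 10 of 12 peaks were lower, at Gtf2ird1, a TFII-I family factor, 10 of 11, at Zfp516 8 of 10, at Sez6l 8 of 10 and at Chst3, a sulfotransferase gene, 6 of 10. The Mgat5 peaks went from 29.6 ± 1.96 to 19.4 ± 2.27 RPM (SD, n = 3) and the Gtf2ird1 peaks from 37.9 ± 1.97 to 24.9 ± 4.12 (SD, n = 3). The 10 peaks whose nearest gene is Zfp386 (within chr12:115502539-116011777) had 6.40, 5.56 and 5.99 RPM before and 6.74, 6.01 and 6.17 after IAA, and 0 of 10 were lower or higher. On average 26.4% of their words recur in the genome, against 4.15% to 8.23% at the other genes.

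Stitching far distal peaks at most about 13 kb apart gave 3317 runs with a tested peak, of which 2533 hold 1 and 29 hold 5 or more. The run with the most, 9 peaks over 26457 bp near the start of chromosome 17, holds the largest rise described above, and of its other 8 peaks 0 passed the test, with changes between -0.54 and 0.35. Its 9 peaks had group means of 0.604 to 2.17 RPKM. The next 3 runs hold 7 tested peaks each. Near Sez6l (chr5:112661371-112687065) 7 of 7 were lower, near Slc52a3 (chr2:152010961-152038727) 5 of 7 and near Rd3 and Slc30a1 (chr1:191932079-191965118) 6 of 7, against 68.2% of all tested peaks, and their median changes were -0.62, -0.79 and -0.73.

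The far distal peaks were compared with the promoter of the nearest gene. For 2703 peaks that gene has a tested peak at its start, and 1513 of them (56.0%) were lower, against 800 of 1748 (45.8%) whose nearest gene has none and 68.2% of all tested peaks. Both groups differ in level as well, at 1.67 and 1.55 RPKM, and in recurring words, at 11.1% and 17.4%, and the part of these in the difference was not tested. A far distal peak changed more negatively than the promoter peak in 1351 of the 2703 cases. The rank correlation of both changes was 0.16, as a description across peaks measured in the same libraries.

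Matches to the octamer were rare in every group of peaks compared. The central 300 bases held ATGCAAAT in 37 tested far distal peaks (0.831%), against 1.01% of distal peaks with an OCT4-site peak within 100 kb, 2.53% of distal OCT4-site peaks and 1.13% of all tested peaks. Far promoter peaks had a lower share, 0.644%. Of the 37, 24 were lower, against 68.2% of all tested peaks, and 1 was higher, and their median change was -0.57 against -0.49 for the other far distal peaks. The difference in the fall was 0.05 (exact permutation p = 0.2, adjusted p = 0.45), and 0.03 to 0.07 as each library was left out. The strongest 2 with the octamer inside their central 200 bases, picked after the values were seen, are shown with the motif matches in capitals.
Vps54, chr11:21256566-21256765: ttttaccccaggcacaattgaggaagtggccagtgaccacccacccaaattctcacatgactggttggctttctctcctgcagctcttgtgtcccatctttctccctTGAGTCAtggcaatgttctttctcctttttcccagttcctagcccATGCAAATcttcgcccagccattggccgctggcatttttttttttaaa
Rusc2, chr4:43399281-43399480: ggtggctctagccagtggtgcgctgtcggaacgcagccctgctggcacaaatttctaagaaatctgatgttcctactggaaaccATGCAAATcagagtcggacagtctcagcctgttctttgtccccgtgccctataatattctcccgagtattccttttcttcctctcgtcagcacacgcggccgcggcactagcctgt
The Vps54 window also holds the AP-1 element TGANTCA. The peak in an intron of Vps54 (chr11:21256450-21256881), a subunit of a Golgi tethering complex, had 4.93, 4.33 and 4.19 RPKM before and 2.58, 1.80 and 2.54 RPKM after IAA (log2 change -0.94 ± 0.172 SE, limma adjusted p = 0.000518). The peak in an intron of Rusc2 (chr4:43398623-43400137) had 3.74, 3.30 and 3.86 RPKM before and 2.48, 2.93 and 2.06 RPKM after (limma adjusted p = 0.0125). At both, the libraries of the 2 groups did not overlap, and neither passed the test relative to the median peak.

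Other short motifs were searched on both strands of the same 300 bases. The AP-1 element was in 10.3% of tested far distal peaks and 7.77% of all tested peaks, the KLF element CCACNCCC in 10.9% and 12.8%, the TEAD element GGAATGT in 4.13% and 3.77%, and the SOX element CATTGTT in 3.35% and 2.85%. The ETS element CCGGAAGT was in 0.831% and 2.18%, and in 4.24% of far promoter peaks. The ESRRB element TCAAGGTCA was in 1.21% and 0.839%, the STAT element TTCCNGGAA in 1.46% and 1.25%, the CTCF core CCACNAGGG in 1.30% and 1.49%, and the YY1 element CAAGATGGC in 1.28% and 1.25%. Several shares were close to those of distal peaks with an OCT4-site peak within 100 kb. These had AP-1 in 10.3%, KLF in 10.8%, TEAD in 4.32%, SOX in 3.51% and ESRRB in 1.10%. Far promoter peaks had AP-1 in 4.44% and KLF in 15.5%, so these shares are not particular to far distal peaks. Far distal peaks with any 1 of these 9 motifs had median changes between -0.57 and -0.46, next to -0.50 over all tested far distal peaks. A match is a run of letters and not evidence of binding.

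The 2949 far distal peaks under 0.5 RPKM, 63.1% of all 4674 peaks under that level, were a different kind of sequence. On average 95.0% of their 32-base words occur more than once in the genome, against 13.6% in the tested far distal peaks, and 90.5% of their bases are soft-masked, against 24.6%. Their median GC content was 62.5%, against 50.5%. The median such peak held 1 read, the lowest value in every library, and 1149 of them held 1 read in all 6 libraries, so that no change could be measured in them. A peak listed at 1 read cannot be told from one with 0.

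**Figure D5:**
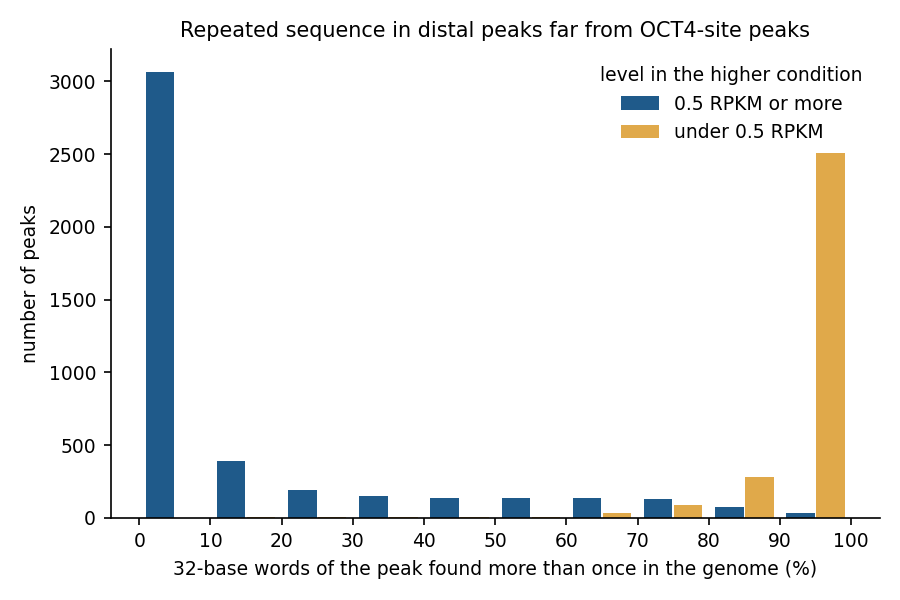
Number of far distal peaks by the percent of their 32-base words that occur more than once in the genome, for the 4451 of 0.5 RPKM or more in the higher condition (blue) and the 2949 under 0.5 RPKM (ochre). Of the latter, 2508 are in the class of 90 to 100%, and of the former 3067 are under 10%.

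These low peaks and the tested ones differed in the YY1 element. CAAGATGGC was in 1335 of the 2949 (45.3%), against 57 of 4451. One word of 32 bases was shared by the central 200 bases of 929 of them (31.5%). The low peak with the most such shared words, picked after the values were seen, is shown with the YY1 match in capitals, on the minus strand.
Stxbp5, chr10:10027138-10027337: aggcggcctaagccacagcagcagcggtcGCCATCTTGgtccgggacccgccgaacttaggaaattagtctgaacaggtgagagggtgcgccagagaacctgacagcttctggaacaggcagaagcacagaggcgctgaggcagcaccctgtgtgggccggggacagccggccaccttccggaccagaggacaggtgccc
This peak (chr10:10026905-10027570), in an intron of Gm28905 and 125826 bp from the start of Stxbp5, had 1 read in each of the 6 libraries, and 100% of its words recur. The files give no class of repeat for it.

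The tested far distal peaks farthest from any OCT4-site peak lie on the Y chromosome. Only 5 of its 64 far distal peaks were tested, with a median change of 0.23, and 0 were lower or higher. The farthest tested peak (chrY:145438-146122), 39964406 bp away, had 0.407, 0.462 and 0.717 RPKM before and 0.686, 0.689 and 0.844 RPKM after IAA. The next (chrY:258502-259534) had 1.36 ± 0.268 and 1.60 ± 0.171 RPKM, and the last of the 3 (chrY:10705425-10706782) had 0.582 ± 0.0399 and 0.576 ± 0.00604 RPKM (SD, n = 3), with overlap at all 3. Between 80% and 90% of their words recur.

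Repeated sequence moved with the response among tested far distal peaks as well. The 979 with over 20% of recurring words had a median change of -0.33, and 26.5% were lower, while the 3472 others had -0.52 and 59.2% were lower. In the strongest tercile by level the medians were -0.50 and -0.54, in the middle one -0.39 and -0.49, and in the weakest one -0.29 and -0.55. Of the 7 peaks higher after IAA, 5 are among the 979. The part that this sequence plays in the change was not tested.

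At the edge of the rule, the far distal peaks nearest to 100 kb lie 100017 and 100073 bp from an OCT4-site peak, in Gm39822 near Jade2 (chr11:51903139-51903428) and in Arhgef17 (chr7:100918032-100918464). They had 1.87 ± 0.311 and 2.03 ± 0.395 RPKM before and 1.65 ± 0.484 and 1.43 ± 0.557 RPKM after IAA (SD, n = 3). The distal peaks just within (chr5:15589794-15590341 and chr7:29193152-29194217) lie 99916 and 99877 bp away. The first had 0.0661 ± 0.0252 and 0.0699 ± 0.0308 RPKM (SD, n = 3), from 1 to 2 reads per library. It was under the threshold and not tested, so that no change could be measured in it. The second, in Catsperg1, had 0.948 ± 0.156 before and 0.530 ± 0.131 RPKM after (SD, n = 3).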

How the data were processed

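H3K27ac ChIP-seq of 3 uninduced and 3 IAA libraries was used. Per the submitters' processing notes and the paper, the authors aligned reads to GRCm38 (mm10) with Bowtie2 2.3.4.3, dropped duplicates (SAMtools rmdup), ran MACS2 over the reads of all 3 uninduced IPs together and deposited RPKM values from DiffBind. No version of MACS2 or DiffBind is given in the sources used here. Each pooled column is the mean over its 3 libraries. The paper names the antibody ab4729 and the labels ab4792. No input or spike-in was used here.

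All RPKM values were whole multiples of 1 read (tolerance 0.01 reads), from which library sizes follow. Peaks of at least 0.5 RPKM in either pooled column entered limma 3.58.1 (R 4.3.3) as log2(RPKM + 0.1) with trend and robust set (Benjamini-Hochberg over all 26457 peaks, threshold 0.05), a procedure checked on simulated data. Medians over peaks were compared between libraries by exact two-sided permutation of the 20 labellings. Starts and gene bodies came from GENCODE vM21, sequence from the RefSeq copy of GRCm38, and recurring words were counted with numba 0.67.0. Coordinates of peaks are as in the authors' files.

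The far distal peaks and the gene and motif lists were chosen with earlier results of these data known. Peaks named are the 5 largest falls and rises with no overlap, 5 of the 6 strongest (the other is not reported here), 4 of the strongest decile nearest to 0, the 3 farthest from an OCT4-site peak, up to 2 strongest per gene list, the longest runs and the edge of the rule. Sequences are from the first 3 falls and the first 3 peaks nearest to 0 outside chromosome 18.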

Additional observations from a re-analysis of the deposited data

How the results depend on the processing

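Of the alternatives, 15 of 20 kept the count of lower far distal peaks within 1.5 times. Within the spread between libraries, 15 of 18 kept the median change of far distal peaks and 19 of 21 the difference from distal OCT4-site peaks. Some of these could not have moved a value. The replicate block leaves library medians as they were, and both centrings cancel in a difference between groups of peaks, which stayed at 0.24. Scaling moved the count and the median change most. With libraries centred on the median peak, the median change of far distal peaks turned from -0.49 to 0.0614, with 22 peaks lower and 42 higher, and with quantile normalization to 0.0646, with 17 lower and 38 higher, since both remove the shift of all peaks. Lower peaks numbered 979 at an adjusted p under 0.01 and 1447 at a distance of 200 kb (fewer peaks), and 1252 to 2503 as each library was left out. Higher peaks numbered 32 with no threshold, 18 in limma without trend and robust, 2 at an adjusted p under 0.01, 2 without repeated sequence and 3 to 15 as each library was left out. With a pseudocount of 1 the median change was -0.32. The difference from distal OCT4-site peaks was 0.20 with no threshold and 0.18 with a pseudocount of 1. That from distal peaks within the distance was 0.0168 with no threshold, 0.0687 at 50 kb and 0.0414 at 200 kb. With no threshold the libraries of the groups overlapped in this difference (exact permutation p = 0.6).

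With no threshold, which adds 2949 peaks mostly at 1 read, the differences became 0.37 for distance, 0.38 for intergenic against intronic, -0.37 for clustered against solitary, 0.51 for GC content, -0.50 for level and 0.0024 for the octamer. Clustered against solitary peaks differed by -0.0421 with a pseudocount of 1, -0.0485 under quantile normalization and -0.0436 at a threshold of 1 RPKM, and strong against weak peaks by -0.10 with a pseudocount of 1 and -0.0765 under quantile normalization, next to -0.02 (exact permutation p = 0.6). The octamer difference was 0.0039 at 50 kb and -0.0927 with no transcript start within 2.5 kb. For X against autosome peaks (chosen after the data were seen) the difference of -0.12 reversed to 0.52 with no threshold. The share of reads changed by -0.31 percentage points at 50 kb, by -0.14 at 200 kb, and as a share of reads in all peaks by 0.47, next to -0.23. Except where the construction shows it, the cause was not tested.

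The labels do not say whether libraries with the same replicate number belong together. Deviations of same-numbered libraries correlated at -0.04 to -0.02 across peaks, a measure that leaves out shifts of a whole library. The percent of reads in peaks fell in the same order in both groups. It was 7.12%, 6.91% and 6.63% in uninduced replicates 1 to 3, and 5.15%, 4.68% and 4.05% in IAA replicates 1 to 3. A pairing by replicate number therefore cannot be told from these values. The replicate block gave 2427 lower and 7 higher peaks, and sign changes of 3 paired differences cannot give a p under 0.25. The distance comparison could not be made at 200 kb, since no peaks at 100 to 200 kb are left. Single peaks are limited by medians of 25 to 48 reads per library.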
